A study of Mus musculus with 24 samples.

Results

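The matrix metalloproteinases (MMPs) and the tissue inhibitors of metalloproteinases (TIMPs) described here are 10 genes: Mmp2, Mmp3, Mmp9, Mmp10, Mmp12, Mmp13, Mmp14, Timp1, Timp2 and Timp3. They were picked by gene symbol from a table of 27368 mouse genes, and all 10 were among the 16560 genes that passed the filter on low counts. The choice was made with the radiation results of these tumours known, so their radiation values, and the counts of them past the threshold, are given as a description that supports nothing by itself, and tests of them are given for the cell line and for olaparib. Tests of how the radiation effect differs by cell line or olaparib use those same radiation values and are no independent support.

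Whole SCC7 tumours, a squamous cell carcinoma line of C3H mice, were grown under the flank skin of female C3H mice of 6 to 8 weeks from about 1000000 injected cells, and RNA sequencing libraries were made from their total RNA. Tumours came from cells with an empty vector (NC) or from cells that overexpress the microRNA miR-21-5p (OE). Treatment began near 300 mm³ of tumour volume, with 3 tumours in each of 8 groups.

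The unirradiated groups were NC sham, NC olaparib, OE sham and OE olaparib. The irradiated groups were NC IR, NC IR+olaparib, OE IR and OE IR+olaparib. IR was 8 Gy of X-rays a day on 3 days. Olaparib, an inhibitor of the DNA repair enzyme PARP, was injected into the peritoneum at 50 mg/kg, 2 h ahead of each irradiation and once more on the day following the last one. All groups share the host strain and the SCC7 line, and the sources used here do not give the vector's promoter or whether each line is 1 clone.

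Groups are those of the coded identifier of each tumour. The written labels for treatment and cell line name another group for 19 of the 24 tumours, and under them 0 of the 10 genes were called in any comparison. In the radiation average, 0 genes of the 6 gene lists and 9 cell type marker lists read below were called under them either. The share of all genes called under these labels is not given here, and nothing about the members is read from the 0. Every direction below rests on the coded groups.

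Depth ran from 37099055 to 40004502 counts a tumour. The squamous line was poor in basal markers: the median over 24 tumours was 0.69 CPM (reads of a gene per 1000000 counted, after TMM scaling of the libraries) for Krt5 and 0.90 CPM for Krt14, against 470 CPM for Krt8 and 266 CPM for Krt18. One tumour, OE IR+olaparib replicate 2, stood apart. Its Krt8 was 0.285 CPM (141 to 915 CPM in the other 23) and its Col1a1, a fibrillar collagen, was 43296 CPM (at most 1269 CPM elsewhere). The part of its composition in the results was not tested, and values that rest on it are given with and without it. NC IR replicate 1 was rich in skeletal muscle RNA, with a summed marker level of 17273 CPM. In bulk tumours, fewer cells of a type and less RNA per cell cannot be told apart. The p-values set each difference against the spread between these tumours, estimated in 1 fit of all 8 groups.

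MMPs are zinc proteinases that are made as inactive precursors and, once activated, cut collagens, laminins, elastin and many growth factors and receptors. TIMPs bind the active site of MMPs and block it, and the pair Timp2 and Mmp14 also does the opposite, since Mmp14 at the cell surface uses bound Timp2 as a handle to activate the precursor of Mmp2. In carcinomas much of the MMP RNA is known to come from fibroblasts, macrophages and neutrophils as well as from the tumour cells, and several MMP genes are classic targets of the transcription factor AP-1.

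Of the 10 genes, Mmp3, Mmp10, Mmp12 and Mmp13 lie in one family cluster on chromosome 9, where 10 MMP genes span 427 kb (GRCm38, 7272514 to 7699585). The AP-1 motif TGANTCA, whose opposite strand reads alike, was searched in the 100 bases before each RefSeq gene start, since those genes moved most between tumours. It was found for all 4 of these members and for 0 of the 4 other members in the promoter table (Mmp14, Timp1, Timp2 and Timp3). Mmp2 and Mmp9 have no entry there and were not searched. The search was prompted by these data, and any part of the motif in the levels was not tested. Mmp12 has it at the inner of its 2 starts (7347374) and not at the first (7344397), where the window holds 0 motifs. Of all 32851 windows of the same length, counted per start and not per gene, 897 (2.73%) held the motif. The windows are shown 5′ to 3′ from RefSeq on GRCm38.p6, with the motif in capitals and the start just after the last base (for Mmp12, the inner start). They lie on the plus strand at chr9:7272414-7272513 (Mmp13), chr9:7347274-7347373 (Mmp12), chr9:7445722-7445821 (Mmp3) and chr9:7502242-7502341 (Mmp10), and on the minus strand at chr11:118355412-118355511 (Timp2).
Mmp13: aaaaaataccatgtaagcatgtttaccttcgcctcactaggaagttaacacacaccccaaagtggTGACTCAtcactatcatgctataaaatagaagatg
Mmp12: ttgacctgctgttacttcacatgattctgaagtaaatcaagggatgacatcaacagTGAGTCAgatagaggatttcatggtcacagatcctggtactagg
Mmp3: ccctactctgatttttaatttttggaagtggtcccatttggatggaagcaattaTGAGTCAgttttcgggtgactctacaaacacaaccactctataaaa
Mmp10: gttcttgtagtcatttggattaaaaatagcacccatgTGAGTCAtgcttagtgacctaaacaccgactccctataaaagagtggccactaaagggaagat
Timp2: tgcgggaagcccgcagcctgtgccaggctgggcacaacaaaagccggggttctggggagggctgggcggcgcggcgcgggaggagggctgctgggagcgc

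The first base of the motif lies 35 bases before the start in Mmp13, 46 in Mmp3 and 63 in Mmp10, and 44 before the inner start in Mmp12. Among the family's 10 genes in the cluster, 8 have the motif in the window of any of their starts, so it does not set the members apart from their neighbours. These are matches of letters and not measured binding.

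Because OE cells overexpress miR-21-5p, the 3′ UTRs of the members were also read for the complement of its seed, ATAAGCT. Timp2 and Timp3 have 1 match each, as does Reck, a membrane-anchored MMP inhibitor that is no member, and the 7 MMPs and Timp1 have 0. Of 21028 genes with a 3′ UTR, 1511 (7.19%) have a match. The mature microRNA (RefSeq, chr11:86584120-86584141, minus strand) is shown with its seed in capitals, and the 3′ UTR stretches (GENCODE vM21 on GRCm38) with the match in capitals. The stretches are at chr11:118302329-118302357 on the minus strand (Timp2), chr10:86348216-86348244 on the plus strand (Timp3) and chr4:43944396-43944424 on the plus strand (Reck).
miR-21a-5p: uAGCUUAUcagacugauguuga
Timp2: cgtcttaaaaaATAAGCTgtcccaaggac
Timp3: ttgagctttcaATAAGCTatagctttgtt
Reck: tacagtttgaaATAAGCTattaatgtaat

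Compared per kilobase of exon, Timp2 was the most abundant of the 10, with a median of 380 CPM per kb over the 24 tumours. Timp3 (93.6), Mmp14 (77.8), Timp1 (77.8) and Mmp2 (72.6 CPM per kb) formed a middle tier, followed by Mmp9 at 31.4 CPM per kb. Mmp3, Mmp10, Mmp13 and Mmp12 were low, between 1.21 and 4.44 CPM per kb. The low genes varied most: the highest tumour stood 957-fold above the lowest for Mmp3 and 204-fold for Mmp10, against 3.68-fold for Timp2. Most of the Mmp3 range came from OE IR+olaparib replicate 2. Levels of each gene across the 8 groups formed few steps without overlap. Of the 7 steps between neighbouring groups in the order of their means, 3 were without overlap for Timp2, 1 each for Mmp3, Mmp10 and Timp1, and 0 for the other 6 genes. For Timp2 the widest was from OE sham (at most 1326 CPM) to NC IR (at least 1584 CPM). The other Timp2 steps were narrow, at 1176 against 1183 CPM (OE olaparib, NC olaparib) and 2684 against 2691 CPM (NC IR+olaparib, OE IR+olaparib). The share of such steps over all genes is not given here, and nothing is read from these counts.

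**Figure D1:**
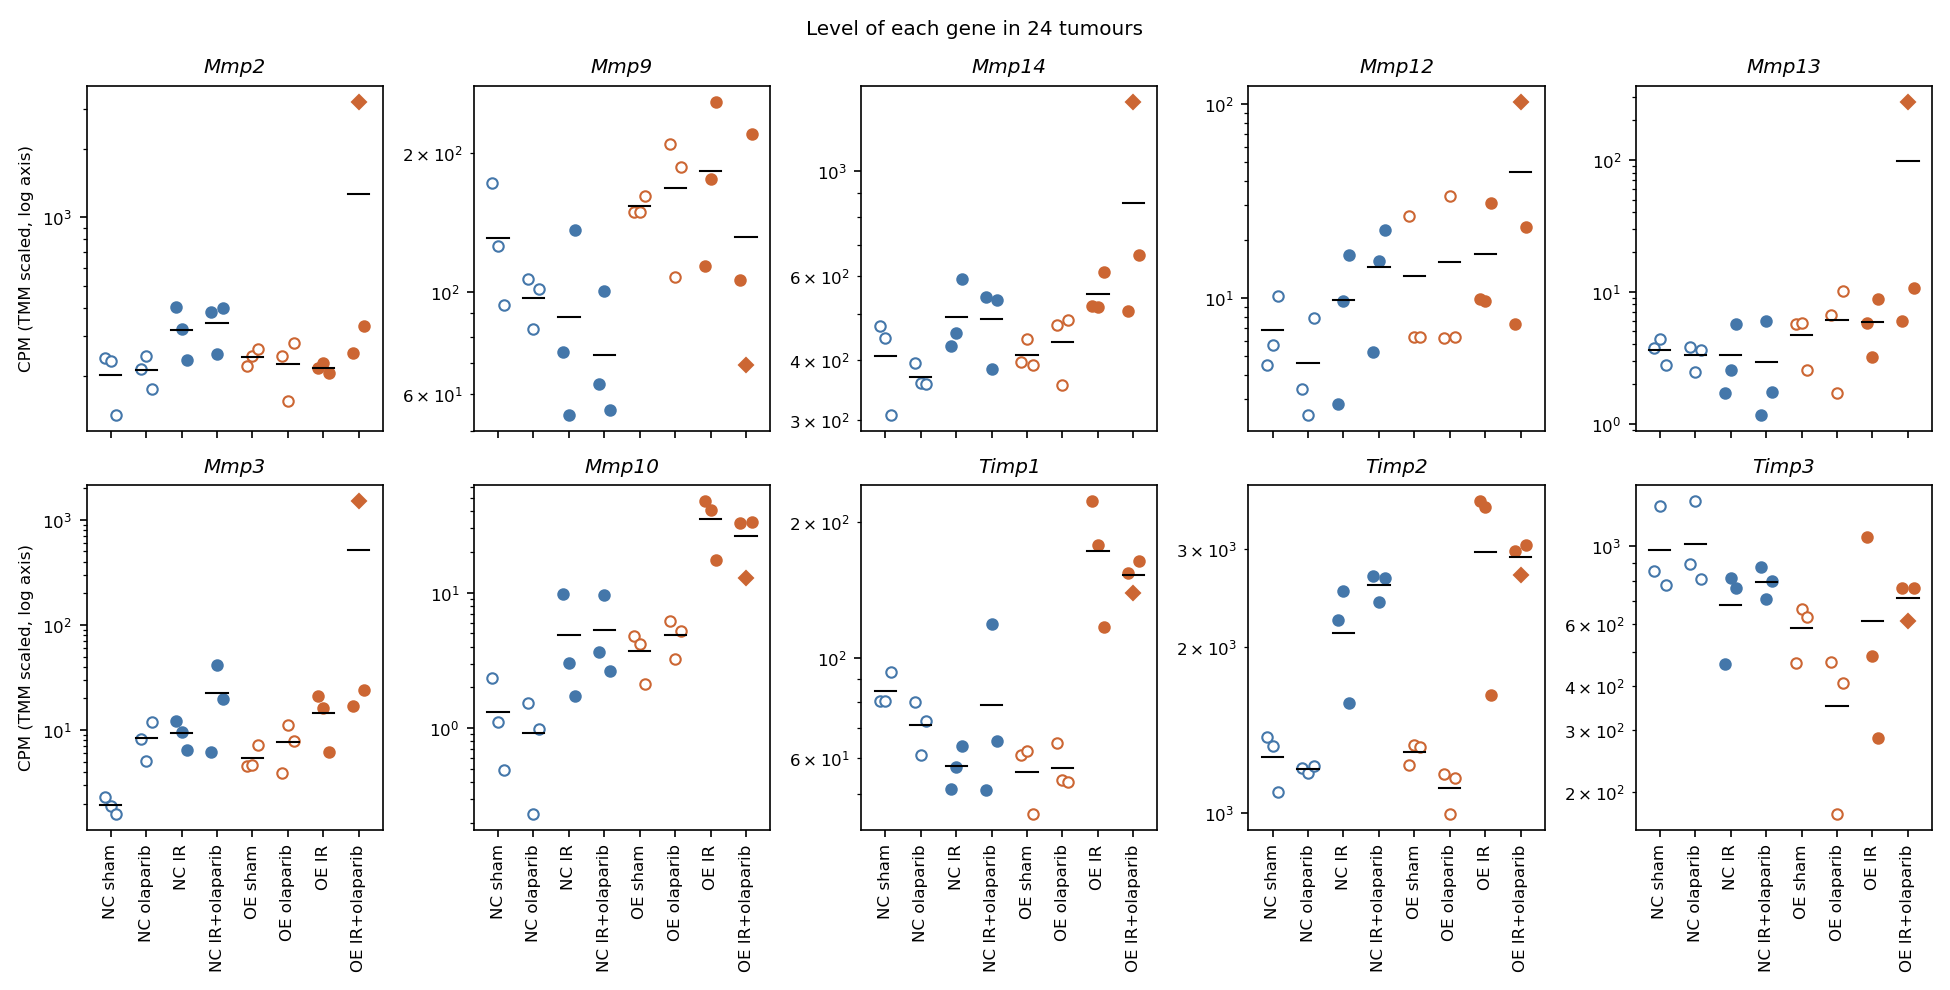
Level of each of the 10 genes in each tumour (CPM, log axis), by group. Points are tumours (blue NC, orange OE, filled irradiated, open unirradiated), black bars are group means, and the diamond is OE IR+olaparib replicate 2. Timp2 is the gene in which all 12 irradiated points lie above all 12 unirradiated points.

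Irradiated tumours had more of most of these RNAs than unirradiated ones. Averaged over the 4 strata (NC or OE, with or without olaparib), 6 of the 10 genes were called higher and 0 lower by edgeR's quasi-likelihood test at an adjusted p below 0.05. In all, 39.1% of the 16560 genes were called in this comparison, 21.7% higher and 17.5% lower. Since radiation values chose the members, nothing is read from their count against these shares. The called genes were Mmp3, Mmp10, Timp2, Mmp2, Timp1 and Mmp14, and the same 6 were called without OE IR+olaparib replicate 2. The log2 fold change was above 0 for 9 of 10, with a median of 0.97 against 0.04 for all genes.

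Timp2, the inhibitor that partners Mmp14, separated the irradiated tumours best. In NC it stood at 1373, 1325 and 1092 CPM in sham and at 2233, 2523 and 1584 CPM in IR tumours. With olaparib, NC had 1208, 1183 and 1219 CPM unirradiated and 2684, 2411 and 2665 CPM irradiated. All 6 irradiated NC tumours were thus above all 6 unirradiated ones.

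OE tumours showed the same split. Timp2 was 1225, 1326 and 1319 CPM in OE sham and 3670.3, 3582 and 1638 CPM in OE IR tumours, and 1176, 997 and 1158 CPM in OE olaparib against 2973, 2691 and 3051 CPM in OE IR+olaparib. Over 12 tumours a side the means were 2642 ± 646 (SD) against 1217 ± 108 CPM, a log2 fold change of 1.11 ± 0.11 (SE). The lowest irradiated tumours, NC IR replicate 3 and OE IR replicate 3, were still above the highest unirradiated one. NC IR replicate 3 was also the irradiated tumour with the lowest summed macrophage markers (3303 CPM) and had Cdkn1a, the p53 target and cell cycle inhibitor, at 332 CPM, inside the unirradiated range of 184 to 342 CPM.

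By stratum, as a description, Timp2 was past the threshold in all 4. Its log2 fold change was 0.74 ± 0.23 in NC without olaparib (10.0% of all genes called), 1.10 ± 0.23 in NC with olaparib (1.46%), 1.20 ± 0.23 in OE without (0.248%) and 1.39 ± 0.23 in OE with olaparib (6.78%). When each of the 24 tumours was left out in turn, it dropped below the threshold in 20 fits in NC without olaparib, in 9 fits in NC with olaparib, in 9 in OE without olaparib and in 1 in OE with olaparib. With no filter on low counts Timp2 passed only in OE with olaparib, and in a fit of the 2 compared groups alone it passed neither there nor in NC without olaparib.

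Timp1, a secreted inhibitor of MMPs, was higher in irradiated tumours of OE and not of NC. In OE it stood at 60.9, 62.2 and 45.2 CPM in sham and at 223, 178 and 117 CPM in IR tumours. With olaparib the OE values were 64.8, 53.8 and 53.2 CPM unirradiated and 154, 140 and 164 CPM irradiated. Every irradiated OE tumour was above every unirradiated one, with means of 163 ± 36.3 and 56.7 ± 7.32 CPM (SD, n = 6).

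In NC the picture differed. Timp1 was 80.3, 80.4 and 93.2 CPM in sham against 51.2, 57.5 and 64.0 CPM in IR tumours, so all 3 irradiated tumours were lower. It was 80.2, 60.9 and 72.5 CPM in NC olaparib and 51.2, 119 and 65.7 CPM in NC IR+olaparib, which overlap. The log2 fold changes by stratum were −0.56 ± 0.25 and 0.15 ± 0.25 in NC, and 1.62 ± 0.25 and 1.41 ± 0.25 in OE. Both OE values were past the threshold, which was lost in 5 and in 3 of the 24 fits that left out 1 tumour.

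The difference between the radiation effects of OE and NC was itself tested. That difference is built from radiation values known when the members were chosen and is no independent support. For Timp1 it was 1.72 ± 0.25 on the log2 scale (edgeR quasi-likelihood test, adjusted p = 0.0237), and Timp1 was the only gene called of 16560 (0.00604%). The call depended on single tumours. The value stayed between 1.59 and 1.94 when each of the 24 tumours was left out, but the call held in only 6 of the 24 fits (without NC IR replicate 3, NC IR+olaparib replicates 1 or 2, NC olaparib replicate 2, OE IR replicate 3 or OE IR+olaparib replicate 2), and the adjusted p was 0.0553 to 0.131 in the other 18. DESeq2 gave an adjusted p of 1.69e-06 and called 210 genes, and the limma voom fit with sample weights gave 0.000146 and called 2879.

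**Figure D2:**
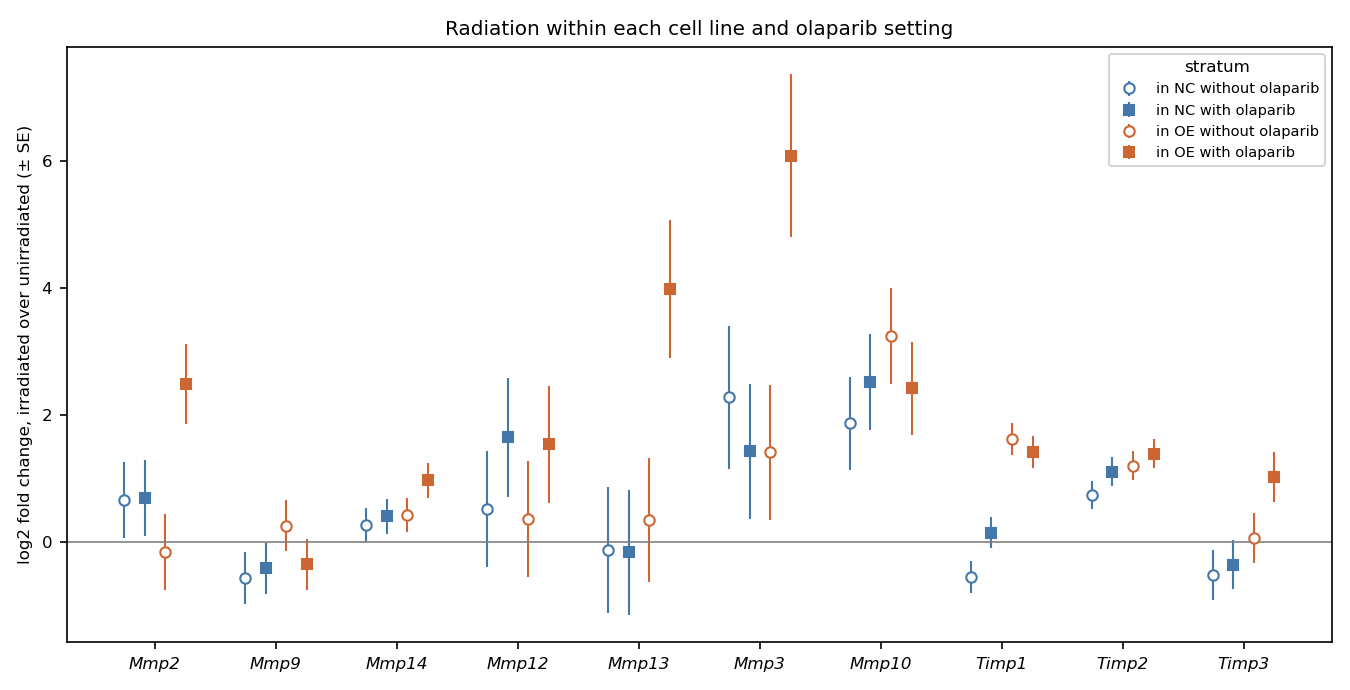
Radiation log2 fold change (irradiated over unirradiated, with SE bars) of each of the 10 genes in the 4 strata of cell line and olaparib, blue for NC and orange for OE. Timp1 is the gene whose OE values (1.62 and 1.41) lie far from its NC values (−0.56 and 0.15).

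Timp3 is the inhibitor that stays bound to the matrix and also blocks the shedding protease ADAM17. Its radiation log2 fold change was 0.05 ± 0.20 on average and differed by stratum, at −0.52 ± 0.39 and −0.36 ± 0.39 in NC without and with olaparib and 0.06 ± 0.39 and 1.02 ± 0.40 in OE. None of these was past the threshold, and in OE with olaparib all 3 irradiated tumours were above all 3 unirradiated ones. In NC it was 853, 1301 and 777 CPM in sham and 894, 1349 and 808 CPM in olaparib tumours, and in OE it was 466, 664 and 629 CPM in sham and 469.9, 173 and 409 CPM in olaparib tumours. All 6 unirradiated OE tumours were below all 6 unirradiated NC tumours (means 468 ± 176 and 997 ± 257 CPM). Irradiated tumours overlapped, from 465 to 874 CPM in NC and from 286 to 1062 CPM in OE. Timp3 overlaps Syn3 on the other strand over 21.3% of its exon length, and Syn3 had a mean of 0.0987 CPM.

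Mmp10 and Mmp3 are stromelysins, which cut proteoglycans, laminin and fibronectin and activate other MMP precursors. Mmp10 was low in NC tumours: 2.35, 1.11 and 0.489 CPM in sham, and 1.54, 0.233 and 0.986 CPM in olaparib tumours. Irradiated NC tumours had 9.75, 3.02 and 1.74 CPM without olaparib and 3.66, 9.58 and 2.64 CPM with it. The ranges of irradiated and unirradiated NC tumours met only at 1.74 and 2.35 CPM.

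Among OE tumours Mmp10 was mostly higher. It was 4.76, 4.19 and 2.12 CPM in OE sham and 6.20, 3.23 and 5.17 CPM in OE olaparib, against 47.6, 40.4 and 17.3 CPM in OE IR and 32.6, 12.8 and 32.9 CPM in OE IR+olaparib. All 6 irradiated OE tumours were above all 6 unirradiated OE tumours and above all 6 irradiated NC tumours, while unirradiated OE and NC tumours met at 2.12 and 2.35 CPM. The radiation log2 fold change was 2.58 without OE IR+olaparib replicate 2, and by stratum it ran from 1.87 ± 0.73 (NC without olaparib) to 3.25 ± 0.75 (OE without olaparib), with no stratum called on its own.

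Mmp3 was carried partly by 1 tumour. It stood at 2.29, 1.91 and 1.59 CPM in NC sham and 12.1, 9.65 and 6.54 CPM in NC IR tumours, without overlap. With olaparib, NC had 8.15, 5.05 and 11.8 CPM unirradiated and 6.14, 41.5 and 19.8 CPM irradiated. OE had 4.51, 4.62 and 7.19 CPM in sham, 3.88, 11.3 and 7.83 CPM in olaparib, 21.1, 16.2 and 6.12 CPM in IR and 17.0, 1521 and 24.2 CPM in IR+olaparib tumours. The value of 1521 CPM is that of OE IR+olaparib replicate 2, and the average radiation log2 fold change was 2.80 ± 0.56 with it and 1.63 without it. About 8.39% of the 50-base words in Mmp3 and 8.37% of those in Mmp10 occur in another gene, mostly in each other, so small differences between these genes are uncertain.

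**Figure D3:**
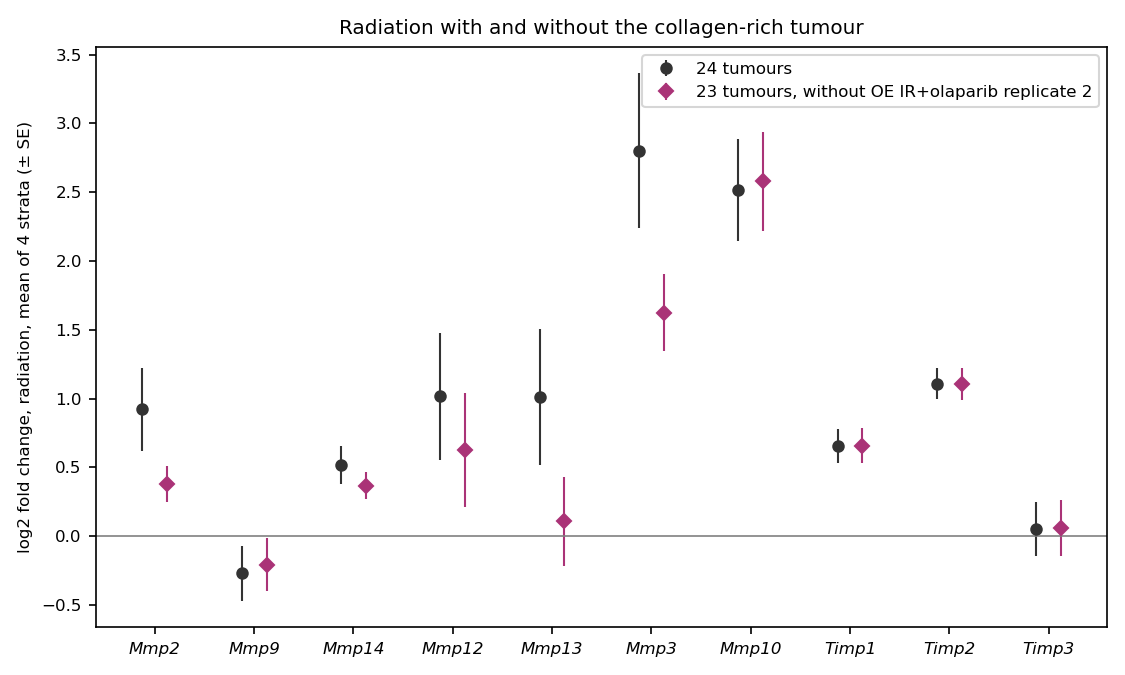
Average radiation log2 fold change of the 10 genes (bars are SE) with all 24 tumours and without OE IR+olaparib replicate 2. Mmp3 moves from 2.80 to 1.63 and Mmp13 from 1.01 to 0.11, and Timp2 stays at 1.11.

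Mmp13, the main interstitial collagenase of rodents, and Mmp12, the macrophage elastase, both had their highest value in that same tumour. Mmp13 was 276 CPM in OE IR+olaparib replicate 2 and between 1.16 and 10.7 CPM in the other 23, and its average radiation log2 fold change was 1.01 ± 0.50 with it and 0.11 without. Mmp12 was 103 CPM there and at most 33.6 CPM elsewhere, with 1.02 ± 0.46 and 0.63. Neither was called in the radiation average. The 15 macrophage markers together were higher in irradiated tumours, with a median sum of 17301 CPM (3303 to 26119) against 7995 CPM (5884 to 15871), and their part in the Mmp12 values was not tested.

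Mmp2 and Mmp9 are the gelatinases, which cut denatured collagen and basement membrane collagen. In NC, 5 of 6 irradiated tumours (234 to 401 CPM) had more Mmp2 than any unirradiated tumour (135 to 246 CPM). In OE, irradiated tumours other than replicate 2 of IR+olaparib ranged from 206 to 331 CPM, which overlaps the unirradiated range of 155 to 278 CPM, and that tumour had 3231 CPM. The average log2 fold change was 0.92 ± 0.30 with it and 0.38 without, called both times. With NC IR replicate 1 and NC sham replicate 3 left out as well it was 0.27 and no longer called.

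Mmp9 did not follow its sister gelatinase. Its radiation log2 fold change was −0.27 ± 0.20 and it was not called, although the weighted limma fit called it lower at −0.62. Irradiated NC tumours ran from 54.1 to 136 CPM against 83.1 to 172 CPM unirradiated, and OE tumours from 69.4 to 259 against 108 to 210 CPM, so both overlap.

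Mmp14, the membrane-type activator of Mmp2, was higher in every irradiated OE tumour (508 to 1398 CPM) than in any unirradiated OE tumour (354 to 485 CPM). NC ranges overlapped, at 384 to 592 against 307 to 472 CPM. Its average radiation log2 fold change was 0.52 ± 0.14, and 0.37 without OE IR+olaparib replicate 2.

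In OE with olaparib, where 6.78% of genes were called, 6 of the 10 genes were: Mmp3 (6.09 ± 1.29), Mmp13 (3.99 ± 1.09), Mmp2 (2.49 ± 0.63), Mmp14 (0.97 ± 0.27), Timp1 and Timp2. Without OE IR+olaparib replicate 2 the calls left were Timp1 (1.47) and Timp2 (1.43), and the others fell to 1.43 for Mmp3, 0.44 for Mmp13, 0.36 for Mmp2 and 0.42 for Mmp14. Fibroblast markers summed to 135126 CPM in that tumour and to between 3321 and 7992 CPM in the other 23. Their part in these 4 values was not tested.

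**Figure D4:**
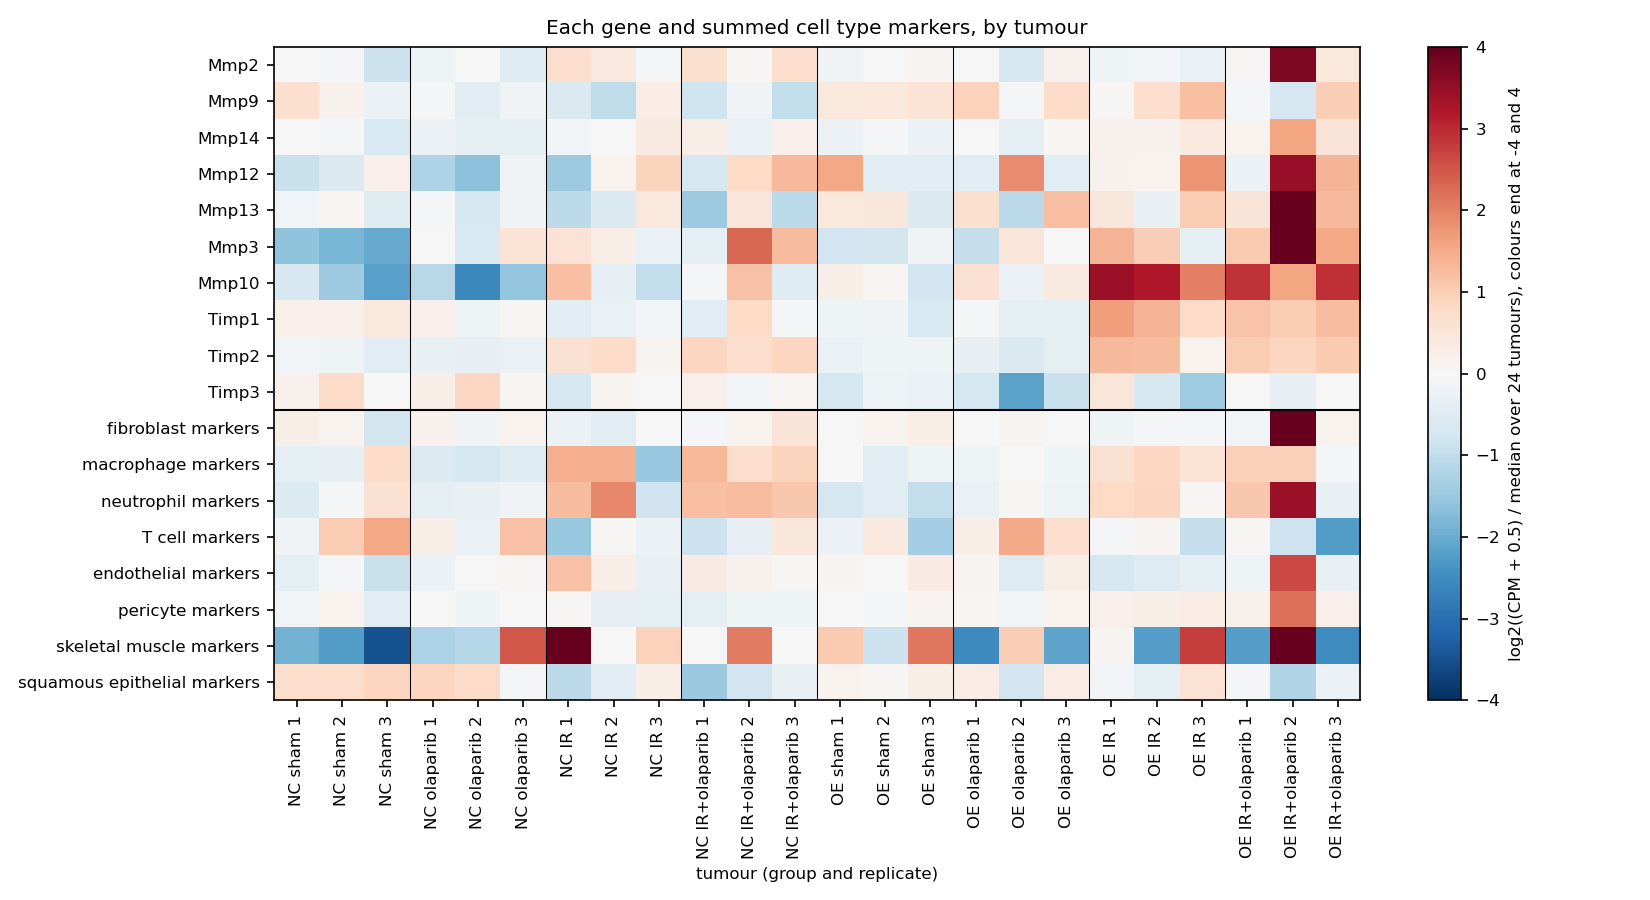
Level of the 10 genes and, below the black line, of 8 summed marker lists in the 24 tumours as log2 of (CPM + 0.5) over the median of the 24, with colours that end at −4 and 4. OE IR+olaparib replicate 2 stands out for Mmp2, Mmp3, Mmp12, Mmp13 and Mmp14, and the irradiated OE tumours for Mmp10 and Timp1.

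OE was compared with NC to see what the miR-21-5p line changes. Mmp10 was the one member called on average over the 4 strata, where 0.453% of genes were called. It was higher in OE by 2.26 ± 0.37 on the log2 scale (edgeR quasi-likelihood test, adjusted p = 0.0121), and was called in all 24 fits that left out 1 tumour, at 2.15 to 2.52. Mmp9 was 0.73 ± 0.20 higher in OE but missed the threshold (edgeR adjusted p = 0.0988), and passed it at 0.82 without OE IR+olaparib replicate 2 (edgeR adjusted p = 0.0196). Of the members with a seed match, Timp2 differed by 0.14 ± 0.11 (edgeR adjusted p = 0.573). Timp3 was lower in OE, at −0.65 ± 0.20, and missed the threshold (edgeR adjusted p = 0.130). Reck, with a seed match and no member, had 0.38 ± 0.32 (edgeR adjusted p = 0.60). In this average, 2565 genes and 8 members, Timp3 among them, had an unadjusted p below 0.05. How that count changes without OE IR+olaparib replicate 2 is not given here.

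Without radiation the cell lines differed in 1 gene of all (0.00604%) and in 0 members, while 1367 genes and 3 members had an unadjusted p below 0.05. The 3 were Mmp10 at 1.94 ± 0.52 (edgeR adjusted p = 0.282), Timp3 at −1.14 ± 0.28 (edgeR adjusted p = 0.250) and Timp1 at −0.45 ± 0.18 (edgeR adjusted p = 0.473). DESeq2 called 120 genes here, among them Mmp10 (adjusted p = 0.0217) and Timp3 (adjusted p = 0.0215), and the weighted limma fit called 953, also with both. Reck, with a seed match like Timp3, differed by −0.12 ± 0.46 (edgeR adjusted p = 0.967).

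With radiation, where 1.31% of genes were called, Timp1 and Mmp10 were higher in OE. Timp1 was higher by 1.27 ± 0.18 (edgeR adjusted p = 0.00358) and Mmp10 by 2.58 ± 0.52 (edgeR adjusted p = 0.0233). The Mmp10 call was lost without NC IR replicate 2, NC IR+olaparib replicate 1 or 3, or OE IR replicate 1 or 2 (edgeR adjusted p 0.0564 to 0.0945). Mmp13 at 2.95 ± 0.74 (edgeR adjusted p = 0.0570) dropped to 1.20 without OE IR+olaparib replicate 2, and Mmp3 at 2.58 ± 0.78 (edgeR adjusted p = 0.0972) to 0.26. Mmp9 went the other way, from 0.95 ± 0.29 (edgeR adjusted p = 0.0962) to 1.13 (edgeR adjusted p = 0.0142).

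Apart from Timp1, the difference in radiation effect between OE and NC passed for no member. It was 0.64 ± 0.71 for Mmp10 (edgeR adjusted p = 0.764), so its larger level in irradiated OE tumours was not shown to be a larger response. Timp3 had 0.98 ± 0.39 (edgeR adjusted p = 0.351).

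**Figure D5:**
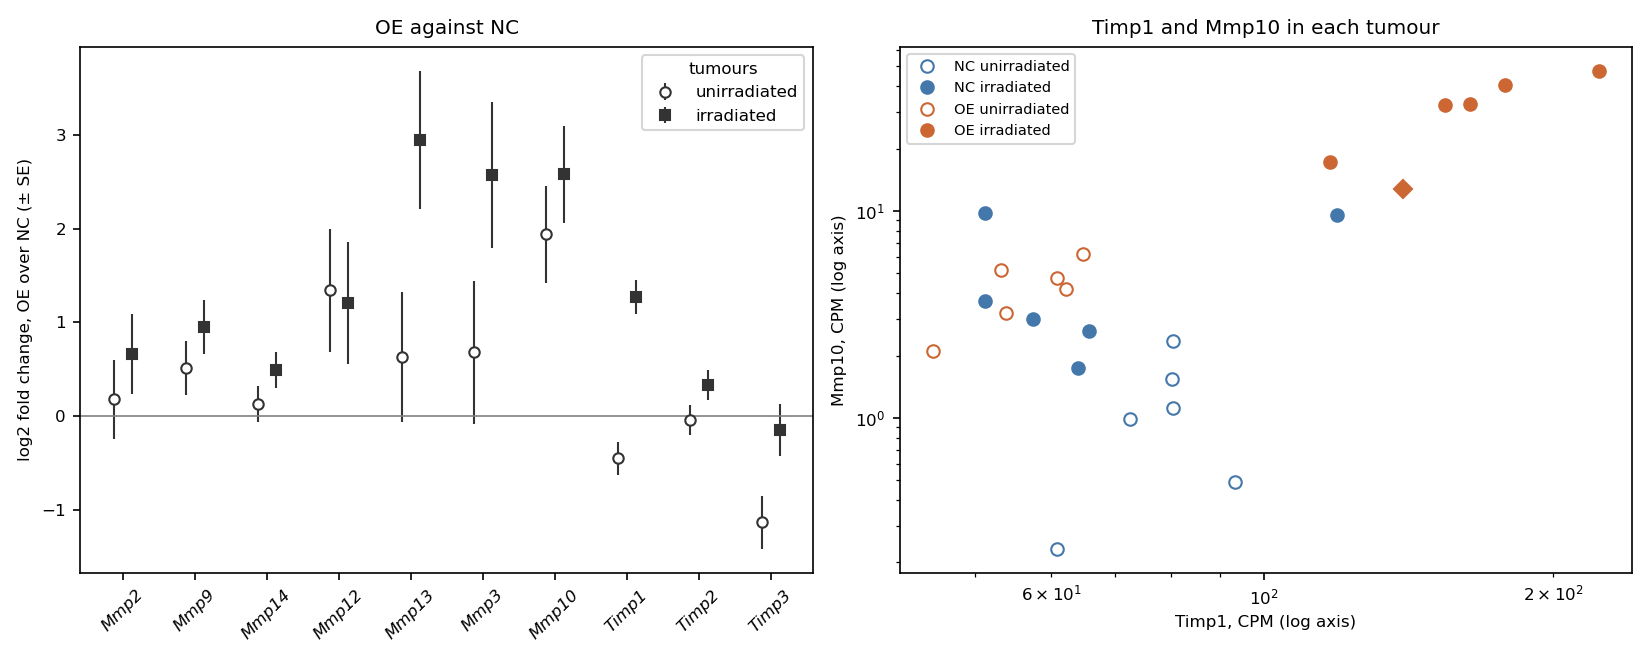
OE over NC log2 fold change (with SE bars) of the 10 genes, without and with radiation (left), and Mmp10 against Timp1 in each tumour (right, CPM on log axes, blue NC, orange OE, filled irradiated, diamond OE IR+olaparib replicate 2). Mmp10 lies at 1.94 and 2.58, Timp1 changes from −0.45 to 1.27, and Timp3 lies at −1.14 without radiation and −0.16 with it, and the 6 irradiated OE tumours are high for both genes.

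Olaparib changed none of the 10 genes past the threshold. Without radiation, edgeR called 0 genes of all (0.0%), with 486 genes and 0 members at an unadjusted p below 0.05, DESeq2 called 5 and the weighted limma fit 0. The member with the largest value was Mmp3, at 1.30 ± 0.77. With radiation, edgeR called 0 genes (0.0%) and DESeq2 1, and 1457 genes were at an unadjusted p below 0.05. They include 3 members, Mmp3 (3.21 ± 0.80), Mmp13 (1.93 ± 0.71) and Mmp2 (1.33 ± 0.43), each at an edgeR adjusted p of 0.477. Without OE IR+olaparib replicate 2 these were 0.88, 0.16 and 0.26. The interaction of radiation and olaparib called 0 genes (0.0%) with edgeR, 6 with DESeq2 and 0 with the weighted limma fit, and 588 genes were at an unadjusted p below 0.05, among them Mmp2 (1.34 ± 0.60, and 0.28 without that tumour).

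The summed level per kilobase of the 3 TIMPs was set against that of the 7 MMPs in each tumour. The ratio had a median of 3.26 (2.69 to 3.96) in unirradiated NC and 2.32 (1.78 to 2.50) in unirradiated OE tumours, which do not overlap. This split was not tested, and the share of genes that split the same way is not given here. For OE against NC without radiation, edgeR called 0 members. In irradiated tumours it was 3.65 (2.65 to 4.20) in NC and 4.03 (0.423 to 5.86) in OE, where the lowest is OE IR+olaparib replicate 2. The ratio concerns RNA and says nothing of active enzyme.

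Genes around the family were read from fixed lists in the radiation average. The shares of all genes to set beside each count are 21.7% called higher and 17.5% called lower, and no list was tested against them. Of the 11 other tested MMP and TIMP genes, 6 were called higher and 0 lower (5 and 1 without OE IR+olaparib replicate 2). Mmp19 was 15.0 ± 7.53 CPM unirradiated and 78.2 ± 66.5 CPM irradiated (SD, n = 12), a log2 fold change of 2.18 ± 0.34. Mmp27, which lies in the same chromosome 9 cluster as Mmp10, had 3.56 ± 0.45. Both had their highest NC value, 193 CPM for Mmp19 and 14.1 CPM for Mmp27, in NC IR replicate 1. Irradiated OE tumours other than IR+olaparib replicate 2 had 12.2 to 36.3 CPM of Mmp19, and irradiated NC tumours 30.2 to 193 CPM.

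Among the ADAM and ADAMTS relatives, 9 of 21 were called higher and 3 lower (9 and 4 without OE IR+olaparib replicate 2), against 21.7% and 17.5% of all genes. Adam8, a myeloid sheddase, had a log2 fold change of 1.53 ± 0.22 and Adam9 0.65 ± 0.12, while Adamts7 (−0.62 ± 0.13), Adam19 (−0.60 ± 0.14) and Adamts9 (−0.58 ± 0.15) fell. Of the MMP activators, partners and other inhibitors, 18 of 23 were called higher and 0 lower (14 and 1 without OE IR+olaparib replicate 2). Serpine2, an inhibitor of plasminogen activators, had 3.23 ± 0.30, Furin, which activates the Mmp14 precursor, 0.39 ± 0.07, and Lrp1, the receptor that clears many MMPs and TIMPs, 0.65 ± 0.11. Lcn2, the partner that binds Mmp9, had 4.34 ± 0.68, and 3.65 without OE IR+olaparib replicate 2.

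The list of cathepsins also holds the cathepsin inhibitors Cst3 and Cstb. Of its 14 genes, 9 were called higher and 0 lower (8 and 0 without OE IR+olaparib replicate 2). The list was led by Ctsd (893 ± 141 to 2437 ± 805 CPM) and Ctsb (2475 ± 635 to 5362 ± 1560.0 CPM). Matrix substrates were called higher in 6 of 26 and lower in 1, and in 6 and 6 without OE IR+olaparib replicate 2. The count of higher calls is near the 21.7% of all genes. Versican (Vcan) was at 0.57 ± 0.13 and the laminin chain Lamb3 at −0.63 ± 0.23. Known inducers and transcription factors of MMP genes were called higher in 11 of 25 and lower in 4, with or without that tumour. Il1a, an inflammatory cytokine, had 2.59 ± 0.35, the AP-1 genes Fosb and Fos had 2.21 ± 0.52 and 1.86 ± 0.44, and Ets1, a factor that drives several MMP promoters, fell by 0.68 on the log2 scale. Without OE IR+olaparib replicate 2, Fosb was 1.35 and Fos 1.11.

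Cell type markers moved in the same comparison. Calls of higher and lower genes were 13 and 0 of 15 for macrophages (12 and 0 without OE IR+olaparib replicate 2) and 7 and 0 of 9 for neutrophils (6 and 0). Stromal lists rested on that tumour in part, with 6 and 0 of 13 for fibroblasts (4 and 2 without it), 2 and 0 of 10 for endothelium (1 and 2) and 2 and 0 of 8 for pericytes (1 and 1). The median fibroblast sum was 5289 CPM in irradiated and 6063 CPM in unirradiated tumours. Calls were 10 and 0 of 14 for skeletal muscle, which became 1 and 0 without OE IR+olaparib replicate 2 or NC IR replicate 1, and 4 higher without NC sham replicate 3. Squamous epithelial markers had 3 and 1 of 12 (1 and 2 without OE IR+olaparib replicate 2, and 1 to 7 higher over the fits that left out 1 tumour). The 3 higher calls were Cdh1, Epcam and Krt6a, at irradiated means of at most 10.2 CPM. The lower call was Krt18 (392 ± 133 to 154 ± 143 CPM). The median squamous sum was 696 CPM (314 to 1320) in irradiated and 1074 CPM (518 to 1599) in unirradiated tumours. T cell markers had 0 and 6 of 9 (0 and 7 without OE IR+olaparib replicate 2), and osteoclast and chondrocyte markers 1 and 1 of 5 (1 and 1). The part of these cells in the MMP and TIMP values was not tested.

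Within groups, some members varied together, given here as a description over 24 tumours after the group means were removed. Mmp2 and Mmp14 had a Pearson r of 0.84 (0.71 over the 23 without OE IR+olaparib replicate 2), Mmp2 and Mmp3 0.76 (0.47), Timp2 and Timp3 0.58 (0.57), and Mmp10 and Timp1 0.50 (0.50). Mmp13 had 0.76 (0.58) with Mmp14, 0.73 (0.45) with Mmp2 and 0.72 (0.45) with Mmp3. Some pairs went the other way, such as Mmp12 and Timp2 at −0.52 (−0.53) and Mmp10 and Mmp12 at −0.50 (−0.43). All tumours share depth and library kit. Among 12574 genes, the one whose level was most like that of a member over the 24 tumours was P2ry2 for Mmp10 (Pearson r = 0.788, Spearman rho 0.755), Igfbp4 for Timp1 (0.821 and 0.798), Suox for Timp2 (0.846 and 0.634) and Col6a2 for Mmp2 (0.964 and 0.847). Without the 2 tumours farthest from the member's median, Pearson r was 0.723, 0.830, 0.644 and 0.867 in the same order.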

How the data were processed

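The tools were fastp, HISAT2 and HTSeq and the genome build mm10, per the submitters' processing notes, and versions, annotation and strand setting are not given in the sources used here. The authors deposited raw read counts per gene, with no normalization, for 24 tumours. Precision is taken from the spread between tumours, since reads were counted with no molecular identifier. The lowest chi-square per gene between tumours of 1 group was 13.6, so no library was counted as a copy.

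The test was edgeR's quasi-likelihood test (edgeR 4.0.16, R 4.3.3) after TMM scaling and filterByExpr, in 1 fit of 8 groups with 16 residual degrees of freedom. There were 12 contrasts, and p-values were adjusted over 16560 genes by Benjamini-Hochberg within each, with a call below 0.05. Alternatives were DESeq2 1.42.0 (size factors, and its test), no filter, the compared groups alone, limma 3.58.1 voom with sample weights, the written labels, each of 24 tumours left out, and, added after seeing the data, 3 tumours of unusual composition left out (NC IR replicate 1, NC sham replicate 3 and OE IR+olaparib replicate 2). NC sham replicate 3 had 15871 CPM of summed macrophage markers, against 7271 and 7623 CPM in the other NC sham tumours. NC IR replicate 3 was kept, though it had 3303 CPM against 26119 and 25425 CPM in the other NC IR tumours. CPM levels are TMM-scaled, and log2 CPM used a pseudocount of 0.5.

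Members, gene lists and tests were chosen with earlier results of these data known. Named are all members and, of each list, up to 4 called genes in either direction with the smallest adjusted p and a mean of at least 1 CPM. The genes most like a member are the first of 3 by Pearson r of log2 CPM with group means removed. Mmp8, Mmp23, Adamts1, Adamts15, Ctsl, Ctsk, Dcn, Spp1, Lama3, Cebpb, Etv4, Runx2 and Hbegf met this rule and have no values in the text. Promoters and microRNAs are from RefSeq, and 3′ UTRs and exon lengths from GENCODE vM21.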

Additional observations from a re-analysis of the deposited data

Results flagged for a closer look

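The radiation effect on Timp1 differed between the cell lines by 1.72 on the log2 scale (edgeR quasi-likelihood test, adjusted p = 0.0237). It is listed here because the difference itself passed a test across all genes. The difference is built from radiation values known when the members were chosen, so it is no independent support. Irradiated tumours were higher than unirradiated ones in 6 of 6 OE tumours, while all 3 NC IR tumours were lower than the NC sham tumours and NC IR+olaparib overlapped NC olaparib, with 119 CPM in NC IR+olaparib replicate 2 above every NC olaparib tumour. The call was lost in 18 of the 24 fits that left out 1 tumour.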

How the results depend on the processing

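No paired analysis was possible because the identifier numbers of the tumours are unique and pair no tumours across groups. Scaling by DESeq2 size factors moved no count of called members by more than 1.5 times. By the written labels, 0 members were called in each of the 12 comparisons, and 0 genes of every gene and marker list in the radiation average. With those labels the average radiation log2 fold change turned to −0.20 for Timp1 and −0.10 for Timp3, that in OE without olaparib to −0.21 for Timp1 and −0.17 for Timp2, and that in OE with olaparib to −1.18 for Mmp13 and −0.050 for Mmp14. The weighted limma fit turned the average radiation value of Mmp13 to −0.31, and that of Timp3 ran from −0.11 to 0.14 when single tumours were left out.

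Counts of called members depend on how many genes a fit calls in all, given in brackets. For radiation in NC without olaparib (1 member of 1659 genes) they were 2 by DESeq2 (2854), 2 by weighted limma (5851), 0 with no filter (799), 0 with the compared groups alone (0) and 0 without the 3 tumours (10). In NC with olaparib (1 of 241) they were 2 by DESeq2 (1374), 3 by weighted limma (5091), 0 with no filter (83) and 3 without the 3 tumours (2719). In OE without olaparib (2 of 41) they were 1 with no filter (21), 4 with the compared groups alone (2106) and 5 by weighted limma (5660). In OE with olaparib (6 of 1122) they were 0 with the compared groups alone (0), 3 by weighted limma (1794) and 3 without the 3 tumours (338). For OE against NC on average (1 of 75) they were 4 by DESeq2 (596), 4 by weighted limma (2726) and 2 without the 3 tumours (837). Without radiation (0 of 1) they were 2 by DESeq2 (120) and 2 by weighted limma (953), and with it (2 of 217) 4 by DESeq2 (953) and 4 by weighted limma (3992). With single tumours left out, counts of called members ran from 6 to 8 for the radiation average, 0 to 2 in NC without olaparib, 0 to 2 in NC with it, 0 to 3 in OE without it and 0 to 7 in OE with it. They ran from 1 to 2 for OE against NC on average, 1 to 4 with radiation and 0 to 1 for the interaction with cell line, and were 0 for the other comparisons. How many of all genes those fits called is not given here, and nothing about the members is read from these ranges. DESeq2 gave Mmp3 no adjusted p for radiation. The cause of these shifts was not tested.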
